A study of Mus musculus with 12 samples.

Results

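Glycolysis, hypoxia signalling and pyruvate use were described through 31 genes of glucose and lactate transport, glycolytic enzymes, pyruvate entry into mitochondria and oxygen sensing. The genes were taken by symbol from a deposited table of 55291 genes, and all 31 were found in it. RNA had been sequenced from single whole mouse embryos at embryonic day 7.0, during gastrulation: 5 female and 7 male embryos of 7 litters, all wild type, C57BL/6J and untreated. Each embryo was a separate animal and gave 1 library, so the embryo is the replicate. The series asked whether the sexes differ at this stage.

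Glycolysis splits glucose into pyruvate in the cytosol. Pyruvate is either reduced to lactate by lactate dehydrogenase and exported, or carried into mitochondria and oxidised by pyruvate dehydrogenase. When oxygen is low, the factor HIF1A escapes degradation and raises transcription of many glycolytic genes through short DNA elements with the core ACGTG or GCGTG. The embryo around implantation lives at low oxygen, and the mouse epiblast is known for heavy use of glucose and release of lactate.

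In units of 1000000 fragments, libraries held between 83.0 and 114.4, as estimated from the value of 1 fragment, so counting error is small for every gene here except Eno2. Levels are normalized counts, which adjust for depth between libraries, and levels of different genes are compared per kb of merged exons. Markers of epiblast (8 of 8 tested), streak and mesoderm (8 of 8), extraembryonic ectoderm (8 of 8) and visceral endoderm (12 of 12) were measured, as a whole embryo of this stage should hold. Markers of trophoblast giant cells (5 of 8 tested, with Prl3b1 and Ctsq at 0 in all embryos) and of maternal decidua (11 of 11) were also present in varying amounts. In male replicates 2, 4, 5 and 7, Fgf8 was at 1471, 2512, 2070 and 776 counts, against 5895 to 7877 in the other embryos. Mixl1 was at 4951, 10860, 5426 and 7591 in these males, against 16577 to 30274. T was higher in them, at 9486, 8336, 8920 and 14152.5, against 4344 to 6228. Other streak markers did not set these males apart, such as Mesp1, at 6940 to 12518 in them and 8033 to 12409 in the others, and Snai1. The mean log2 level of the 8 streak markers overlapped too. Of the epiblast markers, Fgf5 (4141 to 10370, against 13681 to 25944) and Otx2 (5123 to 5897, against 8243 to 10042) set the same males apart, but Pou5f1 and Nanog did not. These markers were picked after the values were seen, and their part in the sex comparisons was not tested. These are bulk samples, so fewer cells of a type and less RNA per cell cannot be told apart. The 31 genes together took up 3.73% ± 0.146 of normalized counts in females (n = 5, SD) and 3.88% ± 0.120 in males (n = 7, SD).

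Promoters of 5 of the genes are shown because the results below turn on them. Ldha had the highest level, Pgk1 and Bnip3 had the smallest p between the sexes, and Pgam1 and Eno1 were the pair that varied together most closely. Each line holds the 250 bases before a RefSeq transcription start on GRCm38.p6, and capitals mark ACGTG and GCGTG on either strand (CACGT and CACGC when read on the printed strand). Where 2 matches overlap as CACGTG, both are counted. Positions are chr7:46845554-46845803 on the plus strand for Ldha, chrX:106186850-106187099 on the plus strand for Pgk1, chr7:138909507-138909756 on the minus strand for Bnip3, chr19:41911621-41911870 on the plus strand for Pgam1 and chr4:150236458-150236707 on the plus strand for Eno1.
Ldha: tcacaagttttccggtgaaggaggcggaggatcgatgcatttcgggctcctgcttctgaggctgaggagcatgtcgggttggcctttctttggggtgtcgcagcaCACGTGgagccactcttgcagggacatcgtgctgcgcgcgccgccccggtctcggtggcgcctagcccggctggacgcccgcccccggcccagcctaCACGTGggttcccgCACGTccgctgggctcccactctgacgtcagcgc
Pgk1: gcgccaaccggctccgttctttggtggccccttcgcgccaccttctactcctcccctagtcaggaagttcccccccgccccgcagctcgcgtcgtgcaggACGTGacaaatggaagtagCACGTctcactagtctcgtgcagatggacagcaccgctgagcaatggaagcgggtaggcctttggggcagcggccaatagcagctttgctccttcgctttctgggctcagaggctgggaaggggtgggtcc
Bnip3: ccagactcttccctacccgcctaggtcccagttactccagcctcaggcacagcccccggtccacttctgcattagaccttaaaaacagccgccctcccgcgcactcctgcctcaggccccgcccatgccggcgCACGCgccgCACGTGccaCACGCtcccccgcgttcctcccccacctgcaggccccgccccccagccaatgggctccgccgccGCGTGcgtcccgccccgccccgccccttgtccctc
Pgam1: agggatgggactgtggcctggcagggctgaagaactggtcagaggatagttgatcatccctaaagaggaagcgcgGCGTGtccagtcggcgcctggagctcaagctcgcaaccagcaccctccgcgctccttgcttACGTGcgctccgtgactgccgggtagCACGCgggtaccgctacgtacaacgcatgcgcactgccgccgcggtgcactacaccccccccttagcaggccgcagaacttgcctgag
Eno1: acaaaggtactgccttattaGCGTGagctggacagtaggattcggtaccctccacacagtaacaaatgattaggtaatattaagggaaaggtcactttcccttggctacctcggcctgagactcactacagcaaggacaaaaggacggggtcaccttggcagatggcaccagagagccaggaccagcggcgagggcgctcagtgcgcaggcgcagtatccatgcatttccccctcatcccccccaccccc

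The printed Ldha and Bnip3 promoters held 5 matches each, Pgam1 3, Pgk1 2 and Eno1 1. Ldha has a further RefSeq promoter with 1 match, and Eno1 a further 2 with 2 matches each, which are not printed. Across the genes, 30 of 31, all but Slc2a3, were matched to RefSeq promoters by symbol, which gave 44 promoters since some genes have several starts. A match stood in 34 of these 44 (77.3%) and in at least 1 promoter of 27 genes, the others being Gpi1, Tpi1 and Eno2. Some promoters of Eno1, Aldoa and Pfkm overlap, so the same match can count more than once, and shares of promoters are not shares of genes. The share of genes with a match was not computed over all genes. The same letters were found in 38.6% of all 32851 promoters and in 53.7% of 15423 promoters of genes tested between the sexes. A promoter with at least 4 matches, as in Ldha, Bnip3 and Slc16a1, was seen in 2.58% of all promoters. The same share was not computed over promoters of tested genes, which held a match more often. A match is a description of the letters and shows no binding.

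Levels of several glycolytic enzymes were among the highest of any transcripts in these embryos. Ldha, which makes the lactate dehydrogenase subunit that favours reduction of pyruvate to lactate, ranked 1 of all genes by count, and also 1 per kb among 53292 genes with an annotated length. By count, Pkm ranked 2 (pyruvate kinase, the last step to pyruvate), Eno1 3 (enolase), Gapdh 9 (glyceraldehyde-3-phosphate dehydrogenase), Aldoa 17 (aldolase), Slc2a3 18 (a high-affinity glucose transporter) and Tpi1 48 (triosephosphate isomerase). Thus 6 of the 31 genes stood in the top 20 by count and 7 in the top 50. Hk2, the higher of the 2 hexokinases, ranked only 1712 by count, and the minor forms Eno3, Pfkm, Pfkp, Hk1 and Aldoc ranked between 4580 and 8637. At the other end was Eno2, the neuronal enolase, near the limit of detection. The plot of levels in each embryo shows that genes differ far more among themselves than embryos do.

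**Figure D1:**
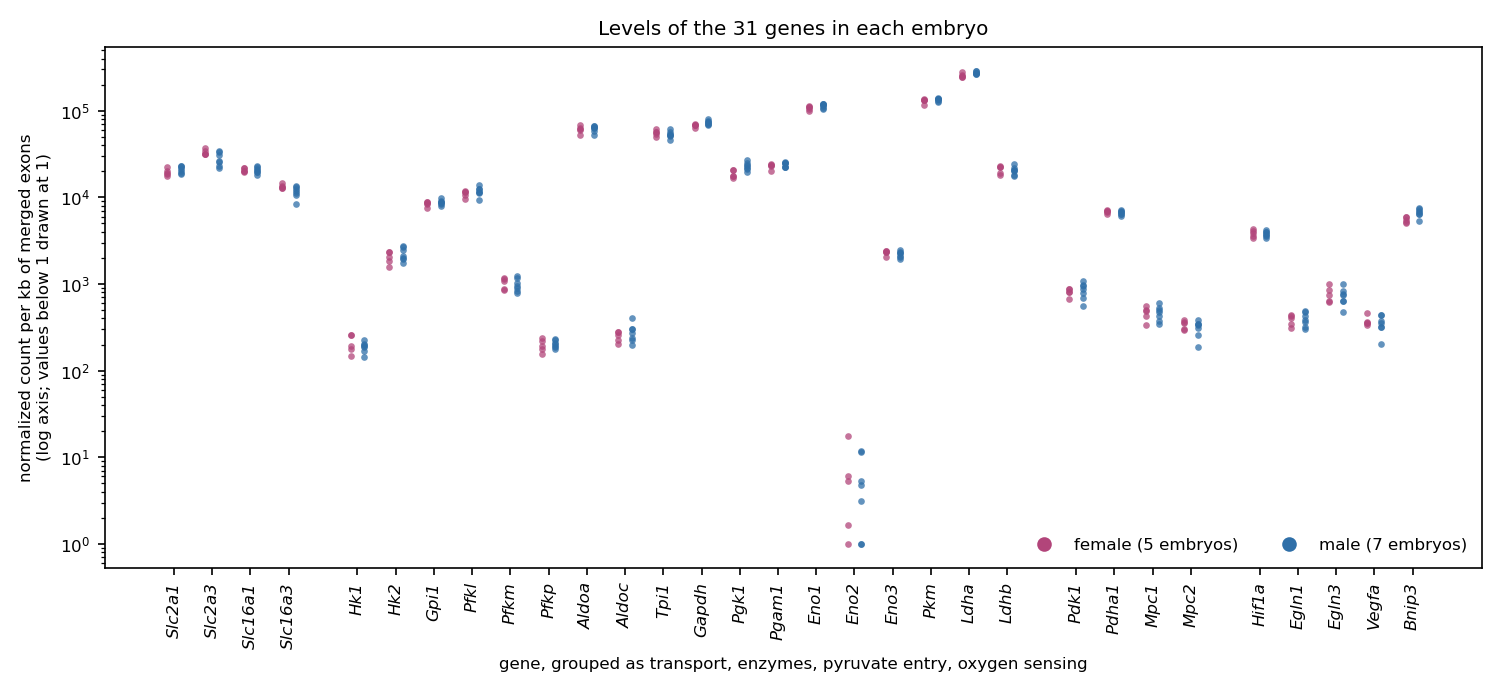
Level of each of the 31 genes as normalized count per kb of merged exons on a log axis, 1 point per embryo, females left of males. Ldha lies highest, near its mean of 268166, and Eno2 lowest, near its mean of 5.60, and the points of a gene are close together except for Eno2.

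Glucose enters through the transporters Slc2a1 and Slc2a3 in this set, and both were abundant. Slc2a3 averaged 30099 ± 4666 normalized counts per kb over all embryos and Slc2a1, the widespread transporter also called GLUT1, 20463 ± 1922 (n = 12, SD). Slc2a1 thus made up 40.7% ± 5.09 of the pair's level per kb (n = 12, SD), or 25.1% without division by length. Its share was 39.0%, 41.5%, 33.3%, 36.4% and 35.8% in the 5 females, and between 36.3% and 49.0% with a median of 42.9% in the 7 males. Females averaged 37.2% ± 3.17 (n = 5, SD) and males 43.3% ± 4.77 (n = 7, SD), with overlapping ranges. The difference of -6.10 points had a two-sided exact permutation p of 0.0366 and an adjusted p of 0.146 over the 12 shares compared, so it did not pass.

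Lactate leaves cells, and can re-enter them, through Slc16a1 (MCT1) and Slc16a3 (MCT4), of which Slc16a3 is typical of cells that export much lactate. Slc16a1 averaged 20663 ± 1357 normalized counts per kb and Slc16a3 12380 ± 1705 (n = 12, SD), so Slc16a3 held 37.4% ± 4.04 of the pair. Slc16a3 counts were 68774, 78868, 69774, 72535 and 68884 in the females, against a lowest of 44418, a median of 62587 and a highest of 72674 in the males. Of the males, 5 lay below every female, and replicates 1 and 6 lay inside the female range. Lowest were replicates 2, 4, 5 and 7, the males set apart above by some streak and epiblast markers, whose part in this was not tested. The log2 difference was 0.23 (SE 0.10, limma adjusted p = 0.398). Slc16a1 averaged 91471 ± 4299 in females (n = 5, SD) and 91440 ± 7335 in males (n = 7, SD), a log2 difference of 0.0032 (SE 0.05).

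Each step that has several isoenzymes was dominated by 1 of them, as the plot of shares shows. Hexokinase, which traps glucose in the cell, was mostly Hk2, with Hk1 at 8.45% ± 1.60 of the pair per kb (n = 12, SD), or 14.5% when the longest transcript gave the length. Phosphofructokinase, the main control point of glycolysis, was 90.5% ± 1.11 the liver type Pfkl, 7.94% ± 1.12 the muscle type Pfkm and 1.60% ± 0.229 the platelet type Pfkp. Without division by length Pfkm was 4.07% and Pfkp 3.29%, so the order of the minor forms held but their sizes did not. Hk2 reached 13977, 14035, 11100, 12267 and 9411 counts in the females, and 10334 to 16287 with a median of 12456 in the males, so the sexes overlapped broadly.

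Aldolase C, a brain form, made up 0.430% ± 0.0863 of the aldolase pair, the rest being Aldoa (n = 12, SD), or 0.211% with the longest transcript. Lactate dehydrogenase B, whose subunit favours oxidation of lactate, made up 7.18% ± 0.819 of the Ldha and Ldhb pair, or 3.54% without division by length. Ldhb ran from 28156 to 35827 counts with a median of 34848 in females and from 27490 to 38206 with a median of 32374 in males. Its share did not differ past the threshold, at 7.53% ± 0.753 in females (n = 5, SD) and 6.93% ± 0.822 in males (n = 7, SD; exact permutation p = 0.234, adjusted 0.350 over 12 shares).

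Enolase was 98.0% ± 0.165 Eno1, with 1.99% ± 0.165 of Eno3, the muscle form (n = 12, SD), or 0.651% of Eno3 without division by length. The Eno3 share was 2.18%, 2.11%, 1.91%, 2.09% and 2.32% in females, and 1.73% to 2.03% with a median of 1.88% in males. Only female replicate 3 lay inside the male range for this share. Females averaged 2.12% ± 0.146 (n = 5, SD) and males 1.89% ± 0.101 (n = 7, SD), a difference of 0.228 points (exact permutation p = 0.0114, adjusted 0.0682 over 12 shares). The Eno1 share mirrored it at -0.229 points (exact permutation p = 0.0101, adjusted 0.0682), so neither passed. Eno2 was at 7.80, 82.5, 25.1, 28.2 and 0 counts in the females, and between 0 and 56.0 with a median of 22.8 in the males. Female replicate 5 and male replicates 3 and 7 had none, where 3 fragments would be 3.37, 2.49 and 3.03 counts, so absence cannot be told from a level below these. Its log2 difference of 0.27 (SE 1.30, limma adjusted p = 0.971) has an SE above its own size.

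**Figure D2:**
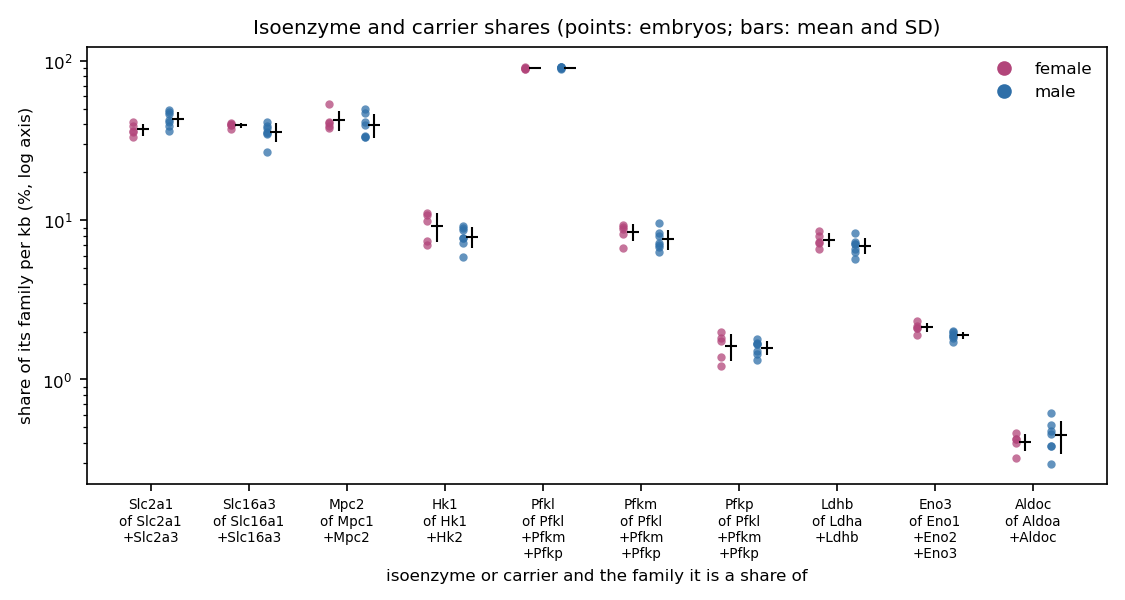
Share of each isoenzyme or carrier in its family's summed level per kb, in percent on a log axis, 1 point per embryo with mean and SD beside it, females left of males. Pfkl lies near 90.5%, Eno3 near 1.99% and Aldoc near 0.430%, while Slc2a1, Slc16a3 and Mpc2 lie between 26.6% and 53.5%.

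Some of these enzymes have processed copies elsewhere in the genome, and the authors' counting could split reads between a gene and its copies. Over 19 copies looked up by name, the highest mean was 123.5 normalized counts (Eno1b), small beside the parent genes. Copies under other names were not looked up, and a low count in a copy does not show how reads were split. Pkm makes M1 and M2 isoforms by alternative splicing, which values per gene do not separate.

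Pyruvate entry was represented by genes at much lower levels than lactate production. Pdha1, the catalytic alpha subunit of pyruvate dehydrogenase, averaged 6725 ± 339 normalized counts per kb, against 268166 ± 14913 for Ldha (n = 12, SD). Pdk1, a kinase that switches pyruvate dehydrogenase off and is a known HIF1A target, averaged 828 ± 144. Of the related kinases outside the set, Pdk3 was higher, with a mean of 3328 per kb, and Pdk2 and Pdk4 were lower, at 235 and 23.4. The mitochondrial pyruvate carrier consists of Mpc1 and Mpc2, at 465 ± 85.5 and 322 ± 57.2 per kb. Which of the carrier subunits led depended on length: Mpc2 was 41.0% ± 6.49 of the pair per kb, but 70.6% without division by length. Mpc2 was 1 of the 3 most variable genes, at 2632, 2219, 2814, 2160 and 2665 counts in females and 1365 to 2812 with a median of 2454 in males. Male replicate 6 was lowest, and the sexes overlapped. Pdha1, which is X-linked, was 1 of the 3 least variable, at 24296 to 27015 in females and 22614 to 26481 in males.

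Among oxygen-sensing genes, Hif1a itself was well expressed, at 22762 ± 2249 counts in females (n = 5, SD) and 22350 ± 1637 in males (n = 7, SD). Egln1 and Egln3 encode prolyl hydroxylases that mark HIF1A for degradation, and Egln3 is also induced by it. They averaged 391 ± 64.5 and 744 ± 160 normalized counts per kb, against 3820 ± 310 for Hif1a (n = 12, SD). Their relative Egln2, which is outside the set, was higher than both, with a mean of 2878 per kb. Egln3 varied most of the genes above 100 counts, at 2273, 2697, 1645, 1998 and 1687 in females and 1275 to 2671 with a median of 1970 in males. Vegfa, the angiogenic growth factor, came next, at 1453, 1546, 1977, 1511 and 1515 in females and 867 to 1876 with a median of 1513 in males. Male replicate 6 was the lowest embryo for both genes. Their SDs on the log2 scale were 0.31 for Egln3, 0.31 for Vegfa and 0.30 for Mpc2.

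At the steady end stood Pkm, Pdha1 and Ldha, with log2 SDs of 0.07, 0.07 and 0.08. Pkm was at 659206, 664834, 661384, 677137 and 589839 in females and 629661 to 710359 with a median of 679417 in males. For 15 of the 28 genes with a mean of at least 1000, the SD lay below 0.17, the median of all 8300 genes at that level.

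None of the 31 genes differed between the sexes past the threshold (limma on log2 of the normalized count plus 1, adjusted p below 0.05 over all genes tested). In all, 7 of 16455 genes were called, or 0.0425%. At an unadjusted p below 0.05 stood 7 of the 31 genes, against 10.8% of all tested. Of these, 2 had higher means in females (5.13% of all tested) and 5 had lower means (5.64% of all tested). No gene of the set separated the sexes without overlap, against 0.772% of all tested. The authors' deposited table likewise calls none of them, against 1.14% of its 18821 genes with an adjusted p.

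Pgk1, the X-linked phosphoglycerate kinase that makes the first ATP of glycolysis, came nearest. It lies at chrX:106187100-106203699 on GRCm38, and counts were 46629, 46957, 39151, 40077 and 37885 in the females, against a lowest of 44217, a median of 51752 and a highest of 61121 in the males. Females 3, 4 and 5 lay below every male, and 6 of the 7 males lay above every female. The log2 difference was -0.30 (SE 0.08, unadjusted p = 0.00207, limma adjusted p = 0.236). In the authors' deposited table its adjusted p is 0.0529.

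Bnip3, a HIF1A target that promotes removal of mitochondria, lies at chr7:138890836-138909519. It was at 12482, 13491, 13472, 11315 and 11832 counts in the females and at 12038 to 17087 with a median of 15200 in the males. Male replicate 4 was the lowest male and the only male inside the female range. The log2 difference was -0.27 (SE 0.08, unadjusted p = 0.00492, limma adjusted p = 0.281), and in the authors' deposited table its adjusted p is 0.0810.

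Ldha, at chr7:46841475-46855627, was at 867310, 933761, 821003, 806195 and 839063 counts in the females and 878324 to 960933 with a median of 899939 in the males. Female replicate 2 was the only female above the lowest male. Its log2 difference was -0.10 (SE 0.04, limma adjusted p = 0.368). Gapdh averaged 280112 ± 12787 in females (n = 5, SD) and 301958 ± 16207 in males (n = 7, SD), and Eno1 579295 ± 27660 in females and 615222 ± 31050 in males. Their log2 differences of -0.11 (SE 0.04) and -0.09 (SE 0.04) had limma adjusted p of 0.369 and 0.451.

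Slc2a3 had the largest positive difference apart from Eno2. Its counts were 229835, 229479, 267564, 226537 and 246898 in the females, and 158972 to 245372 with a median of 190223 in the males. Male replicates 1 and 4 reached the female range and the other 5 males lay below it. The log2 difference was 0.26 (SE 0.10, limma adjusted p = 0.370).

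Over the whole set, 14 differences were positive and 17 negative, with a median of -0.016 on the log2 scale, against -0.00077 over all genes tested. The sign of 12 of the 31 changed under at least 1 other setting of the fit, none of them among the 7 genes above. By role, 12 of the 18 glycolytic enzymes had negative differences (median -0.06), as did 1 of 4 transporters, 2 of 4 genes of pyruvate entry and 2 of 5 oxygen-sensing genes. Remaining enzymes that did not come near the threshold include Gpi1 (glucose phosphate isomerase), Tpi1 and Pgam1 (phosphoglycerate mutase), with log2 differences of -0.06, 0.05 and -0.07.

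**Figure D3:**
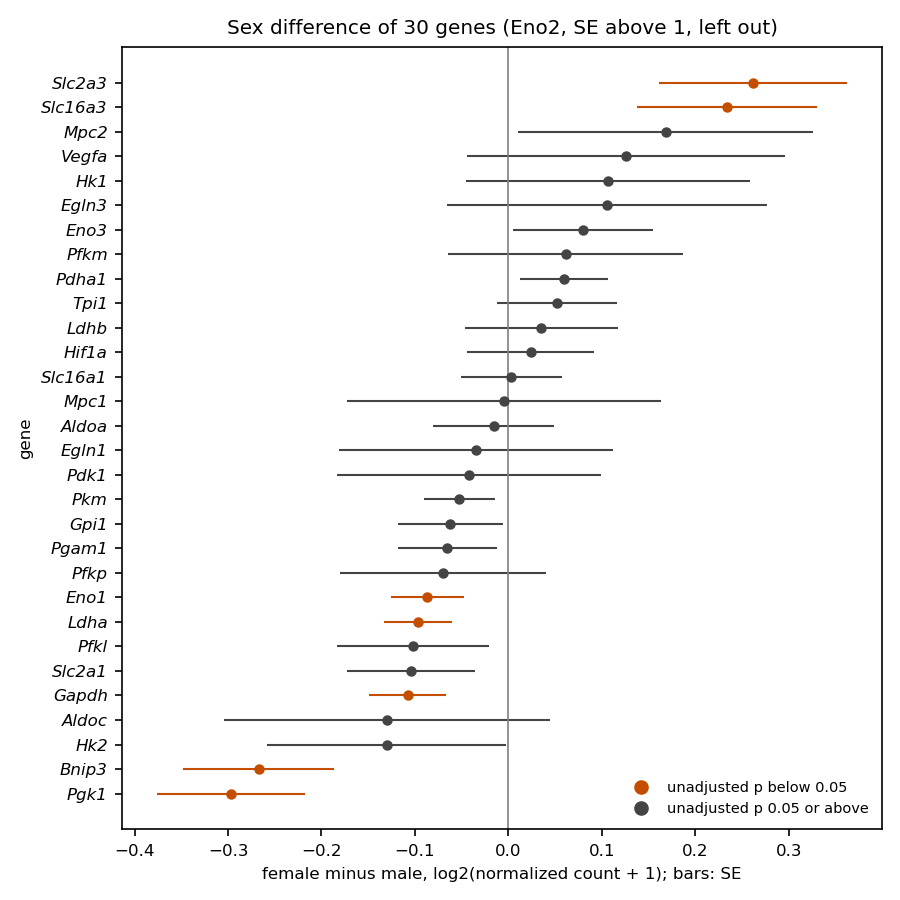
Log2 difference, female minus male, for 30 genes with bars of 1 SE, Eno2 left out because its SE is above 1. Pgk1 at -0.30 and Bnip3 at -0.27 lie farthest below 0 and Slc2a3 at 0.26 farthest above, and none passed the threshold after adjustment over 16455 genes.

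Further genes of the same pathways were read from lists beyond the 31, and none of their members was called between the sexes. Of 38 other isoenzymes and transporters 34 were tested. The sperm isoenzymes Gapdhs and Pgk2 were at 0 in every embryo, and Hk3 and Slc16a8 averaged 2.47 and 3.64 counts. The most abundant of this list were Bsg, the chaperone of the lactate carriers, at 88212 ± 4140 counts, and Pgm1, a phosphoglucomutase, at 13595 ± 1762 (n = 12, SD). Of 24 genes of the pyruvate dehydrogenase complex, its regulators and the citric acid cycle with linked shuttles 23 were tested, led by Mdh2, mitochondrial malate dehydrogenase, at 69459 ± 4343 and Got2, mitochondrial aspartate aminotransferase, at 46247 ± 3482. Of 46 other oxygen-sensing genes and hypoxia targets 45 were tested, led by Elob, a subunit of the VHL ubiquitin ligase, at 30922 ± 1139 and Bnip3l, a relative of Bnip3, at 22720 ± 2240. All 8 pentose phosphate genes were tested, led by Tkt, transketolase, at 39875 ± 1872 and Taldo1, transaldolase, at 38747 ± 1654. At an unadjusted p below 0.05 stood 3 of 34, 6 of 23, 9 of 45 and 1 of 8 genes tested of the 4 lists in that order, against 10.8% of all tested.

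Litters differed in several enzymes by an amount that did not pass after adjustment. Aldoa was at 196514 in female replicate 5 and 194353 in male replicate 7, the 2 embryos of litter 9, against 218237 to 256376 in the other 10 embryos. Pfkl was likewise lowest in these littermates, at 63476 and 62803, against 70818 to 93425 in the others. The littermates also held the 2 lowest values of Gpi1, Tpi1 and Pgam1, a grouping chosen after the values were seen. Their libraries, at 85.4 and 93.8 in units of 1000000 fragments, lay within the range of the others. For a litter term beside sex, Aldoa had the smallest p of the set (limma, unadjusted p = 0.00185, adjusted p = 0.412). None of the 31 genes was called, nor any of all tested (0%), and 7 of 31 had an unadjusted p below 0.05 against 7.24% of all tested. With litter alone in the model none of the 31 was called (0.0122% of all tested) and 5 had an unadjusted p below 0.05 (6.33%). Over litters of 2 or more embryos none was called (0%) and 8 had an unadjusted p below 0.05 (3.88%). Litters held 1 to 3 embryos, and only 3 held both sexes, so values of the sex difference within single litters are not given.

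Across the 12 embryos the main glycolytic enzymes varied together, although for Aldoa and Tpi1 this did not hold once litter means were removed. Over the 465 pairs of the 31 genes, Pearson r ran between -0.81 and 0.90 with a median of 0.13. Within the 18 glycolytic enzymes the median was 0.43, within pyruvate entry 0.22, within the 4 transporters -0.07, and within oxygen sensing -0.22. For the 11 leading enzymes of each step (Hk2, Gpi1, Pfkl, Aldoa, Tpi1, Gapdh, Pgk1, Pgam1, Eno1, Pkm and Ldha), all 55 pairs were positive, with r between 0.13 and 0.90 and a median of 0.64. These correlations are descriptions: all genes of an embryo share its library, its scaling and its mix of tissues, and this choice of 11 was made after the values were seen.

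The closest pair was Pgam1 and Eno1, neighbours in the pathway, with r = 0.90 and rho = 0.83 over 12 embryos. Next came Pfkm and Ldhb (r = 0.89), both minor isoenzymes of their step, then Gapdh and Pgk1 (r = 0.87) and Eno1 and Pkm (r = 0.87), both pairs of successive steps. Aldoa and Tpi1 had r = 0.83 as well. Once litter means were removed, in the 8 embryos of litters with 2 or more, r was 0.82 for Pgam1 and Eno1 and 0.94 for Gapdh and Pgk1, but 0.11 for Aldoa and Tpi1. In that setting 15 of the 55 pairs of leading enzymes had negative r, and 14 of these 15 involved Aldoa or Tpi1. The lowest was Tpi1 with Pgam1, at -0.90, and the median over the 55 was 0.50.

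Slc2a3 ran against the enzymes. Its r was negative with 10 of the 11 leading enzymes, with a median of -0.45, and its lowest was with Eno1 (r = -0.81, rho = -0.82), which was also the lowest of all 465 pairs. With Bnip3 it had r = -0.68, and with the carrier subunit Mpc2 r = 0.83. Pfkm and Vegfa formed another opposed pair (r = -0.71, rho = -0.80). Slc2a1, the other glucose transporter, had positive r with most of the leading enzymes, as the plot of pairwise correlations shows.

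**Figure D4:**
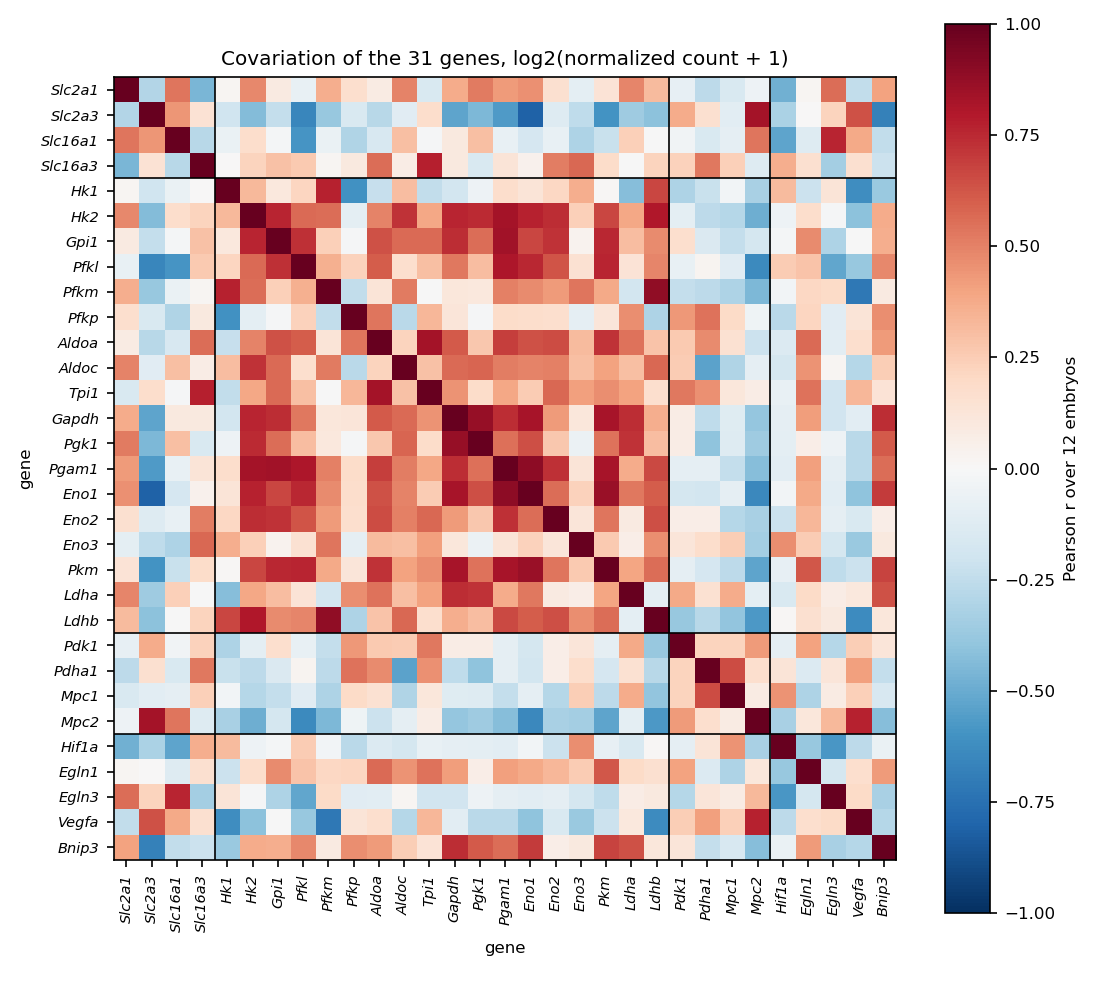
Pearson r over 12 embryos between each pair of the 31 genes on log2(normalized count + 1), from -1 in blue to 1 in red, with lines between the roles. The block of enzymes between Hk2 and Pkm is mostly red, with Pgam1 and Eno1 at 0.90, while the row of Slc2a3 is mostly blue there, with Eno1 at -0.81 and Tpi1 at 0.17.

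Tissue markers were set beside these patterns. Slc2a3 had r = 0.90 with the mean level of 12 visceral endoderm markers over 12 embryos (rho = 0.84, permutation p = 0.00027, adjusted p = 0.0273 over 16455 genes). Correlations were run with 5 marker lists (visceral endoderm, giant cells, decidua, extraembryonic ectoderm and epiblast) and 4 anchor genes, and no other call was made among the 31 genes. With the visceral endoderm list 1 of 31 was called, against 1.55% of all genes tested with this list. The rank correlation had an adjusted permutation p of 0.104. Without the 2 embryos farthest from the list's median r was 0.76 and the call was lost (adjusted permutation p = 0.340). It was also lost without female replicate 1, 3 or 5 or male replicate 2, 5 or 6, although r stayed between 0.87 and 0.95 whichever embryo was left out. With sex means removed r was 0.84, and with litter means removed 0.91, and neither passed.

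Visceral endoderm is the extraembryonic layer around the embryo that takes up and passes on nutrients. The 12 markers summed to 402428 to 560812 normalized counts in females and 214215 to 474438 in males, and no marker was at 0. Their mean log2 level relative to all embryos was 0.31 ± 0.18 in females (n = 5, SD) and -0.22 ± 0.45 in males (n = 7, SD). The males that were low for the markers, replicates 2, 5, 6 and 7, were also below every female for Slc2a3. Male replicate 3 was below every female for Slc2a3 too, at 190223, but its marker level of 0.14 was not among the low ones. The part of these markers in the sex difference of Slc2a3 and in the Slc2a1 share was not tested.

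At an unadjusted permutation p below 0.05, 4 of the 31 genes moved with the visceral endoderm list, against 14.1% of all tested. Besides Slc2a3 these were Mpc2 (r = 0.71), Vegfa (r = 0.68) and Eno1 (r = -0.72), none of which passed over all genes (adjusted permutation p = 0.164, 0.175 and 0.168).

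**Figure D5:**
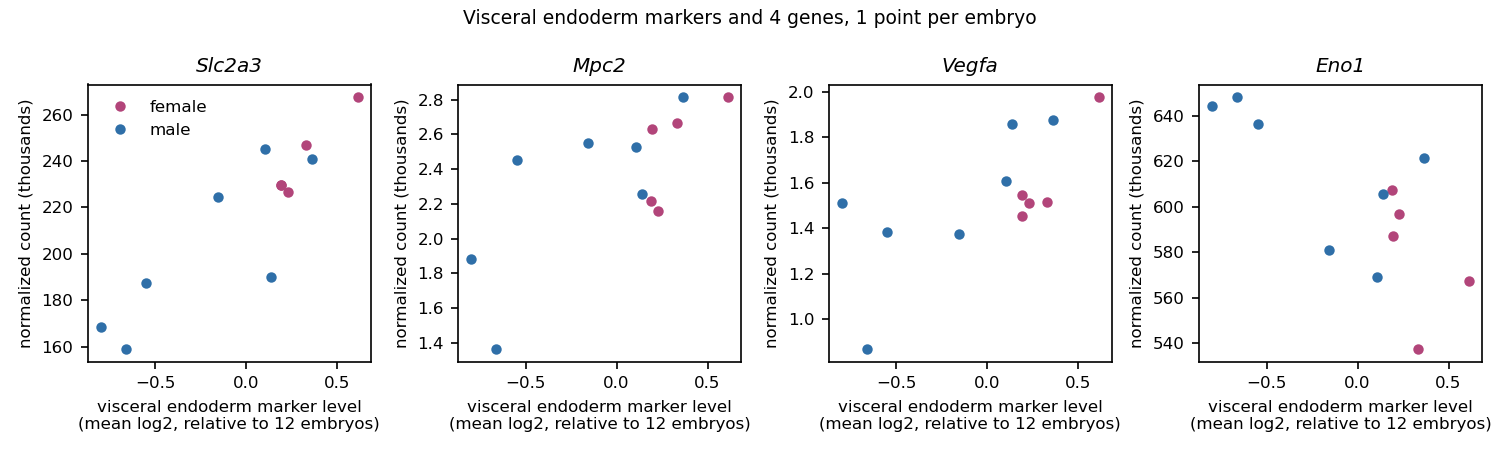
Normalized counts (divided by 1000) of Slc2a3, Mpc2, Vegfa and Eno1 against the mean log2 level of 12 visceral endoderm markers relative to all embryos, 1 point per embryo coloured by sex. Slc2a3 climbs with the markers (r = 0.90) and Eno1 declines (r = -0.72), with the lowest marker levels all in males.

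Extraembryonic ectoderm, the trophoblast tissue that adjoins the epiblast, was added as a list after the first values were seen. Its 8 markers summed to 24921 to 30132 counts in females and 12073 to 27631 in males. The mean log2 level was 0.58 ± 0.49 in females (n = 5, SD) and -0.41 ± 0.24 in males (n = 7, SD). This level did not overlap, but female replicate 2, at 0.010, lay just above male replicate 5, at 0.0041. Of the 8 markers, 5 had higher means in females and 3 (Tfap2c, Cdx2 and Sox21) lower means. Eomes, which the streak also expresses, made up 80.1% of the summed counts. Widest apart in ratio were the scarce Esrrb, at 101 ± 78.7 in females and 5.09 ± 6.63 in males, and Wnt7b, at 474 ± 331 in females and 92.4 ± 40.7 in males. For Esrrb the sexes overlapped, with female replicates 1 and 2 at 19.2 and 13.9 and male replicate 1 at 18.7. Male replicates 2, 4, 5 and 7 were below 3 fragments for it. No gene at all was called with this list (0%). At an unadjusted permutation p below 0.05 stood 6 of the 31 genes, against 8.47% of all tested: Pgk1 (r = -0.83), Ldha (-0.74), Gapdh (-0.67), Bnip3 (-0.61), Eno1 (-0.58) and Slc2a3 (0.59). The genes with negative r are the 5 with lower means in females above. Since the level of this list did not overlap between the sexes, this match is not separate from the sex comparison. With sex means removed, r was -0.60 for Pgk1 and -0.08 for Bnip3, and the part of these markers in the sex differences was not tested.

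With the epiblast list, which was added in the same way, Slc16a3 (r = 0.76), Tpi1 (r = 0.74), Eno3 (r = 0.70) and Hk2 (r = 0.58) had unadjusted permutation p below 0.05, against 7.77% of all tested, and none was called (0%). Epiblast markers summed to 383818 to 449147 counts in females and 334444 to 481502 in males. Giant cell markers summed to 7165 to 28406 in females and 9825 to 69765 in males, and none of the 31 genes was called with them (0.565% of all tested). Slc16a3 alone had an unadjusted permutation p below 0.05 (r = -0.59), against 8.33% of all tested. Decidual markers gave Mpc1 (r = 0.65) and Eno2 (r = -0.60), against 5.02% of all tested.

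In the set, 4 genes served as anchors for the rest: Ldha for lactate production and Pdk1, Bnip3 and Vegfa for the response to hypoxia. No gene in the table was called with any of them. At an unadjusted permutation p below 0.05, Ldha had 3 of the 30 others (Gapdh, Pgk1 and Bnip3, against 5.97% of all tested) and Bnip3 had 6 (Gapdh, Eno1, Pkm, Ldha, Pgk1 and, with negative r, Slc2a3, against 7.16%). Vegfa had 5 (Mpc2 and Slc2a3 with positive r and Pfkm, Ldhb and Hk1 with negative r, against 8.08%), and Pdk1 had none (5.51%). Without the 2 farthest embryos, r with Vegfa was 0.099 for Mpc2 and 0.089 for Slc2a3. For Pfkm, Ldhb and Hk1 it was -0.68, -0.42 and -0.64.

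Outside the set, the genes most like Ldha over 12 embryos, among those with a mean of at least 100 counts, were 1190007I07Rik (r = 0.89), Slitrk4 (0.83), Gm17300 (0.83), Ndufa4l2 (0.83) and Elavl4 (0.82), each at an adjusted permutation p of 0.699. Those most like Bnip3 were Stbd1 (r = 0.92), Gm45507 (0.91), Taf13 (0.88), Gm50340 (0.87) and Elovl6 (0.86), with adjusted permutation p between 0.350 and 0.515. None passed over all genes.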

How the data were processed

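RNA-seq values of 12 embryos were analysed. Per the labels' protocols, RNA of single embryos was made into libraries with a very low input kit and Nextera XT. Per the submitters' processing notes, cutadapt 4.1, STAR 2.7.7a, Salmon 1.5.2, DESeq2 1.34.0 and the mm10 build were used, and their settings are not given in the sources used here. The authors deposited 1 log2-scale value per gene and embryo, whose floor of 10.4141 and shape are those of a variance-stabilizing transformation, and a mean signal per gene in normalized counts. Their deposited log2 fold changes and p-values of the sex comparison, raw and adjusted, were printed only where named.

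Solving this transformation backwards gave normalized counts. For 25183 of 25451 genes, all 31 described here among them, averaging these over embryos returned the deposited mean (relative tolerance 1e-06). Only 83.6% to 85.7% of a library's low values came within 0.1 of whole fragments, so reads were not recovered and no count model was used. Intervals and floors, at 3 fragments per library, cover counting error only.

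Genes with at least 10 normalized counts in at least 5 embryos were tested (16455, all 31 genes included), with limma 3.58.1 in R 4.3.3 on log2(normalized count + 1), female minus male, with a mean-variance trend and Benjamini-Hochberg adjustment at 0.05. Shares used the summed level per kb of merged exons (GENCODE M21) and an exact permutation test over 792 splits of the embryos, whose smallest p is 0.00126. Correlations with anchors used 100000 permutations, adjusted over all genes. Scripts used Python 3.11.15, numpy 2.4.6, scipy 1.17.1 and pandas 2.3.3, and were tested on simulated data.

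The genes and lists were chosen with earlier results of these data known. Values are given for genes past a threshold, the 3 with the largest difference and the 3 with the smallest p between the sexes, the leading and rarest member of each family, the 3 most and 3 least variable genes with a mean of at least 100, the 2 most abundant of each further list and the 5 genes most like Ldha and Bnip3. Alternatives were other pseudocounts, filters, scalings, lengths and blocks, and leaving out each embryo.

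Replicate numbers do not pair the embryos: by the labels, a female and a male of the same number always came from different litters. Deviations of same-numbered embryos from their sex means had correlations between -0.068 and 0.0092. Between littermates they were between -0.165 and 0.070. Since known littermates were no more alike, these correlations cannot show whether embryos were paired.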

Additional observations from a re-analysis of the deposited data

Results flagged for a closer look

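In 86 groups of 5 to 7 embryos, the value of 1 embryo stood apart from the rest of its sex 5 times, and chance alone flags about 5% of groups. Pgam1 was lowest in female replicate 5, at 40401 normalized counts, against 45727 to 47621 in the other females. Pkm was lowest in the same embryo, at 589839, against 659206 to 677137. Female replicate 5 also had the highest mean log2 level of 8 parietal endoderm markers, at 1.60, against -0.85 to 1.37 in the other embryos. Its littermate, male replicate 7, was at -0.42, and the part of these markers was not tested. In female replicate 3, Eno3 was lowest at 3579, against 4119 to 4230 in the other females, and Vegfa was highest at 1977, against 1453 to 1546. The share of Mpc2 in the mitochondrial pyruvate carrier was also highest there, at 53.5%, against 38.1% to 41.7%. Female replicate 3 also had the highest visceral endoderm marker level of all embryos, at 0.61, and its part in these values was not tested.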

How the results depend on the processing

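None of the 31 genes was called between the sexes by limma under any of 23 alternatives to the fit, where the lowest adjusted p of any of them was 0.162. Over all genes 7 were called, 4 with the replicate block, 4 with litter as a fixed block, and 5 to 9 when single embryos were left out. The replicate numbers only name the embryos, so the block carries no pairing. The sign of the sex difference changed for 12 genes, none of them at an unadjusted p below 0.05 in the fit reported. On the log2 scale, Slc16a1 was at -0.0076 with the same total per embryo, -0.0070 with upper quartile scaling and -7.8e-06 with the replicate block. Vegfa was at -0.041 with the replicate block. With litter as a fixed block, Pfkm was at -0.075, Ldhb -0.048, Pdk1 0.14, Mpc1 0.019 and Egln3 -0.078. Leaving out single embryos gave -0.026 to 0.030 for Slc16a1, -0.14 to 0.0084 for Pfkp, -0.060 to 0.035 for Aldoa, -0.38 to 1.22 for Eno2, -0.0013 to 0.090 for Ldhb, -0.14 to 0.026 for Pdk1, -0.080 to 0.11 for Mpc1, -0.021 to 0.068 for Hif1a and -0.097 to 0.044 for Egln1.

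The level of shares followed the length used. With the longest transcript, Hk1 was 14.5% of its family, Pfkl 93.3%, Pfkm 5.31%, Aldoc 0.211%, Eno1 99.2%, Eno3 0.843%, Ldhb 4.86% and Slc16a3 42.2%. Without division by length, Slc2a1 was 25.1%, Hk1 11.6%, Pfkl 92.6%, Pfkm 4.07%, Pfkp 3.29%, Eno1 99.3%, Eno3 0.651%, Ldhb 3.54%, Slc16a3 41.7% and Mpc2 70.6%. The sex difference of the Slc2a1 share was -5.28 points with the replicate block (exact permutation p = 0.188) and lay between -7.27 and -5.12 without single embryos, with unadjusted p above 0.05 without female replicate 3, 4 or 5 or male replicate 2, 5, 6 or 7. The Eno1 and Eno3 shares were at -0.246 and 0.245 points with the replicate block (exact permutation p = 0.125 each, where 0.0625 is the smallest possible). Without single embryos, the difference lay between -1.26 and -0.590 points for Pfkl, 2.09 and 4.59 for Slc16a3, -0.0508 and 0.141 for Pfkp and -0.0015 and 0.0023 for Eno2. The causes were not tested.

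The 1 gene called with the visceral endoderm list, Slc2a3, became 0 with sex means removed, with litter means removed and without the 2 farthest embryos, and 0 to 1 without single embryos. The floor of 3 fragments was worth 2.49 to 3.40 normalized counts per library, which bears on Eno2 alone among the 31 genes.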

Other observations

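Some genes of the further pathway lists, chosen here after their values were seen, had an unadjusted p below 0.05 between the sexes. Mdh1, the cytosolic malate dehydrogenase, averaged 27262 ± 1502 normalized counts in females (n = 5, SD) and 34263 ± 4671 in males (n = 7, SD), a log2 difference of -0.32 (SE 0.08, limma adjusted p = 0.230). Mdh2, its mitochondrial counterpart, averaged 73314 ± 2935 in females and 66705 ± 2757 in males, a log2 difference of 0.14 (SE 0.04, limma adjusted p = 0.256). Cs, citrate synthase, averaged 22288 ± 612 in females and 20031 ± 1127 in males, with 0.16 (SE 0.05, limma adjusted p = 0.277), and Got2 49093 ± 2009 in females and 44213 ± 2821 in males, with 0.15 (SE 0.05, limma adjusted p = 0.307). None passed over all genes.

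Adm, which encodes adrenomedullin and is known as a hypoxia target and as a trophoblast giant cell product, averaged 6988 ± 6293 in females (n = 5, SD) and 18439 ± 12193 in males (n = 7, SD). The log2 difference was -1.66 (SE 0.63, limma adjusted p = 0.369), beside giant cell markers that summed to 7165 to 28406 in females and 9825 to 69765 in males. The part of these markers in it was not tested.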
